A study of Mus musculus with 3 samples.

Results

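The mesoderm and the epiblast of E7.5 mouse embryos were compared gene by gene, with 1 RNA-seq library each. A gene was called when its RPKM was above 5 in either library and the ratio of the RPKM values was above 2. RPKM is the number of reads of a gene divided by its length and by the reads counted in the library, so that levels can be compared between genes. In all, 17633 genes had a read in any of the 3 libraries of the series, 17100 had a read in mesoderm or epiblast, and 8340 passed the RPKM minimum. Of these 8340 genes, 443 were higher in mesoderm, which is 5.31% of them. Another 419 were higher in epiblast, which is 5.02%. The 862 called genes made up 10.3% of the genes above the minimum. The RPKM values chose the genes, so their ratios are given as a description and without a test. Counts within a gene list are to be read against these percentages. Where 2 values follow a gene, the first is its RPKM in mesoderm and the second that in epiblast.

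The embryos were of the ICR strain, and no manipulated allele or treatment is named for them. The embryonic region was dissected and its layers were separated with enzymes and needles, and RNA of many embryos was pooled before each library was made. Every difference below therefore rests on 1 pool against 1 pool, with no replicate check, and the 95% intervals cover counting error only. Bulk RNA of this kind cannot tell fewer cells of a type from less RNA per cell. The epiblast sample held the neuroectoderm and the primitive streak. The endoderm at E7.5 was sequenced as the remaining library of the series. Reads counted on genes summed to 40.8 M reads in mesoderm and 42.7 M in epiblast, and a listed gene had a median of 536 reads in each. No called gene had fewer than 43 reads in its higher library.

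At gastrulation, cells of the epiblast, a pluripotent epithelium, enter the primitive streak, lose their epithelial junctions and leave as migratory mesoderm. The transcription factors Snai1, Eomes, T and Mesp1 act in this step, and the nascent mesoderm is then patterned into lateral, cardiac, paraxial and blood-forming territories by Nodal, BMP, FGF and Wnt signals. The anterior epiblast that stays behind turns into neural and surface ectoderm.

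Most genes differed little between the layers. Of the genes above the minimum, 81.2% lay within 1.5-fold, and the median log2 ratio of mesoderm over epiblast was 0.02. The called genes had a median fold of 3.43 on the mesoderm side and 3.27 on the epiblast side. More than 10-fold separated the layers for 65 mesoderm genes and 58 epiblast genes. In 65 of the mesoderm genes and 44 of the epiblast genes the RPKM in the lower library was under 1. The mesoderm genes took 4.80% of the reads in mesoderm and 1.29% in epiblast. The epiblast genes took 2.78% of the reads in epiblast and 0.730% in mesoderm.

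**Figure D1:**
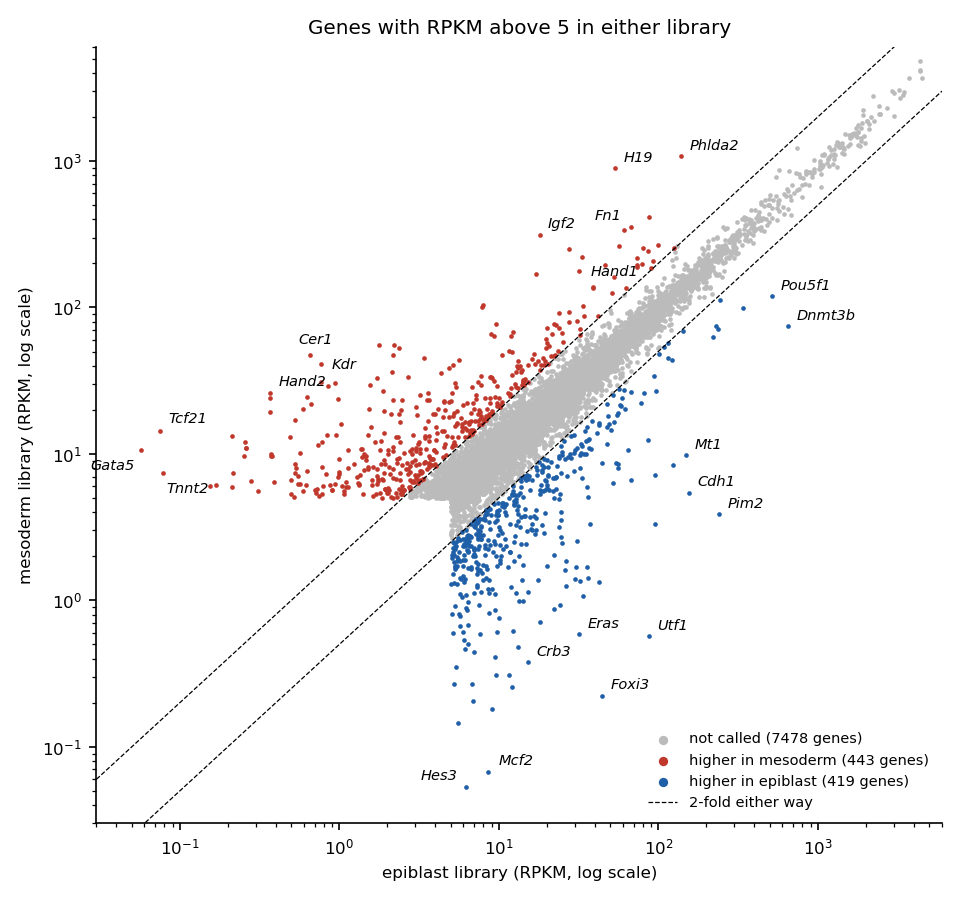
RPKM of each gene above the minimum in the epiblast library (horizontal axis) and in the mesoderm library (vertical axis), both on log scales. Each point is 1 gene, red for the 443 genes higher in mesoderm, blue for the 419 higher in epiblast and grey for genes not called, and the dashed lines mark a ratio of 2 either way. *Gata5* and *Tcf21* sit far to the left and *Foxi3* and *Utf1* far below the grey diagonal.

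The genes with the largest ratios on the mesoderm side included regulators and structural genes of heart, blood and muscle. *Gata5*, a GATA factor of heart and endoderm, had 1443 reads in mesoderm and 8 in epiblast, an RPKM of 10.7 against 0.0567. Its ratio was 189 with a counting interval of 95.4 to 438. *Tcf21*, a bHLH factor of splanchnic mesoderm, had 721 reads against 4, a ratio of 188 (73.3 to 693). The cardiac troponin gene *Tnnt2* had 366 reads against 4, a ratio of 95.7 (37.0 to 353). *Cer1*, *Hand2*, *Nrp1*, *Tal1*, *Kdr*, *Alx1* and *Myl1* followed with ratios from 72.0 down to 46.9. The epiblast side was headed by *Foxi3*, a forkhead gene of cranial ectoderm, with 11 reads in mesoderm and 2295 in epiblast. This gave 0.223 RPKM against 44.6 and a ratio of 200 in favour of epiblast (111 to 400). *Utf1*, a chromatin protein of pluripotent cells, had 27 reads in mesoderm and 4304 in epiblast, a ratio of 152 (105 to 232). The exchange factor gene *Mcf2* (127-fold), the neural bHLH gene *Hes3* (117-fold), the kinase gene *Pim2* (62.0-fold) and *Eras*, a Ras gene of embryonic stem cells (54.0-fold), came next.

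By level, the mesoderm side was headed by imprinted and matrix genes. *Phlda2*, a maternally expressed growth regulator, reached 1077 RPKM in mesoderm and 139 in epiblast, and the noncoding RNA *H19* reached 889 and 53.6. *Ifitm1* (416 against 86.8), *Mest* (353 against 67.8), fibronectin *Fn1* (337 against 60.9) and *Igf2* (315 against 18.0) were next. The epiblast side was headed by the de novo DNA methyltransferase *Dnmt3b*, with 74.3 RPKM in mesoderm and 649 in epiblast, and by *Pou5f1*, the pluripotency factor Oct4, with 119.6 and 517. Among the 20 highest epiblast genes were also *Bex1* (99.7 in mesoderm, 342 in epiblast), the glucose transporter *Slc2a3* (71.3 and 238) and the metallothioneins *Mt1* (9.83 and 149) and *Mt2* (8.37 and 123.1).

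The labels were checked against markers of each layer and of other tissues. Of 11 mesoderm markers, 9 were higher in mesoderm, and their summed RPKM was 612 in mesoderm and 133 in epiblast. *Tbx6* did not differ beyond 2-fold (38.7 in mesoderm, 34.1 in epiblast), and *Tbx5* had 364 reads in mesoderm and 2 in epiblast but stayed below the minimum. Of 11 epiblast markers, 9 were higher in epiblast, with a summed RPKM of 219 in mesoderm and 1160 in epiblast. The neural genes *Sox1* (8 reads in mesoderm, 442 in epiblast) and *Pax6* (8 and 94) had more reads in epiblast but were below the minimum in both layers. Of the 11 endoderm markers, 9 were under 3 RPKM in both libraries. *Afp* had 20 reads in each, *Hnf4a* had 6 in mesoderm and 8 in epiblast, and the highest of the 9 were *Slc13a4* (2.62 and 2.46 RPKM) and *Foxa2* (1.39 and 2.58 RPKM). *Cer1* and *Dkk1* from that list, signal antagonists that mesoderm can also make, were called in mesoderm. With them the 11 endoderm markers summed to 63.8 RPKM in mesoderm, 11.7 in epiblast and 6378 in endoderm, and their part in other results was not tested. The erythroid globin *Hbb-bh1* had 37 reads in mesoderm and 0 in epiblast, at least 12.9-fold more against a floor of 3 reads, and the 7 erythroid markers together had 250 reads against 69, with none called. Of the 9 trophoblast markers, *Hand1*, which mesoderm also uses, and *Plac1* (6.25 in mesoderm, 0.569 in epiblast) were called in mesoderm, and 3 had no read in either layer. *Elf5* (12 reads in mesoderm, 31 in epiblast), *Esx1* (4 and 9) and *Ascl2* (74 and 112) had more reads in epiblast, and *Gcm1* had 3 and 0, all below the minimum.

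**Figure D2:**
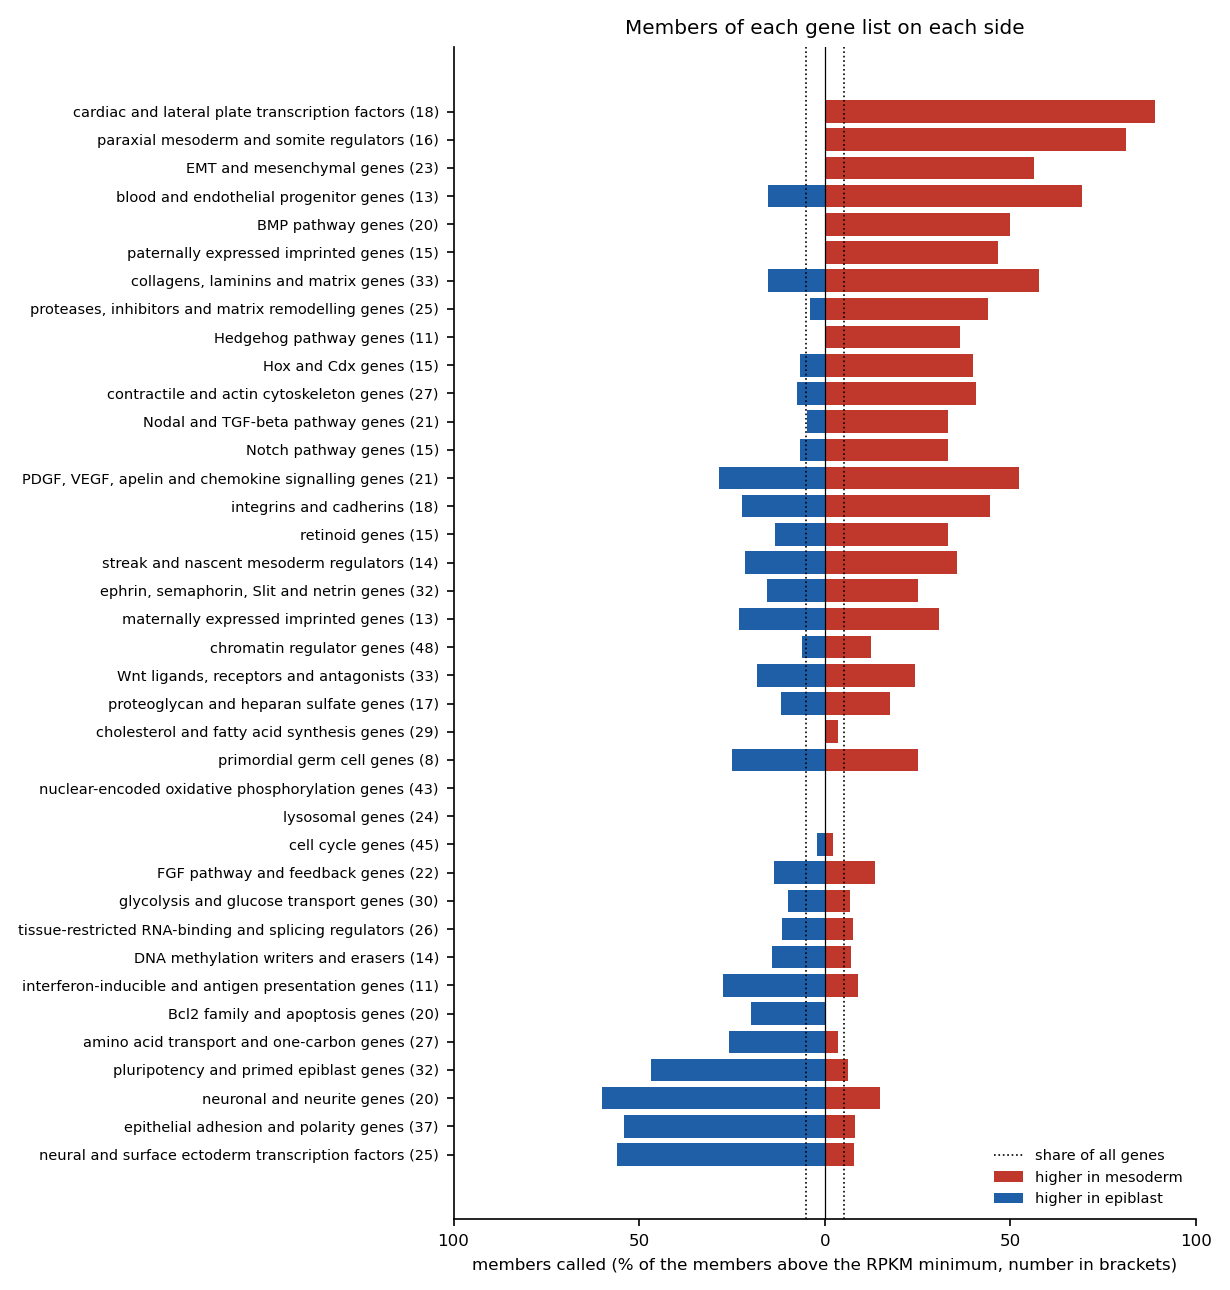
Share of the members of each gene list that were higher in mesoderm (red, to the right) or in epiblast (blue, to the left), in percent of the members above the RPKM minimum, whose number stands in brackets. The dotted lines mark the shares of all genes, 5.31% and 5.02%, and the mesoderm transcription factors lie at the top and the ectoderm, epithelial, neuronal and pluripotency lists at the bottom.

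The regulators of the streak and nascent mesoderm were divided between the layers. Of 14 genes above the minimum, 5 were higher in mesoderm, 3 in epiblast and 6 in neither. *T* (Brachyury), the T-box factor of the streak, had 74.8 RPKM in mesoderm and 229 in epiblast, 3.05-fold more in epiblast. *Mixl1* (7.77 and 18.7) and *Eomes* (7.01 and 14.5) were also higher in epiblast, the sample that contained the streak. *Mesp1*, which marks cardiac and cranial mesoderm as it leaves the streak, had 50.5 RPKM in mesoderm and 11.6 in epiblast. *Mesp2* (10.002 and 2.02), *Lhx1* (13.01 and 2.28), *Snai1* (67.3 and 24.9) and the Nodal effector *Foxh1* (253 and 125) lay on the same side as *Mesp1*. *Msgn1* had 35.1 RPKM in mesoderm and 38.9 in epiblast.

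Transcription factors of the heart and lateral plate stood almost wholly on the mesoderm side, with 16 of 18 called there and none in epiblast. Their median log2 ratio was 3.62, against 0.02 for all genes. *Hand1*, a bHLH factor of the heart and extra-embryonic mesoderm, had 222 RPKM in mesoderm and 33.2 in epiblast, and its relative *Hand2* had 26.2 and 0.367. The 4 GATA genes above the minimum were all higher in mesoderm, with *Gata4* at 36.0 and 2.15, *Gata6* at 31.2 and 0.770 and the blood factor *Gata2* at 7.93 and 1.71 beside *Gata5*. *Smarcd3*, the heart subunit of the BAF chromatin remodeller, had 55.2 and 2.19. The lateral plate gene *Foxf1a* had 33.2 and 1.72. *Mef2d* (10.2 and 5.21) and *Mef2a* (5.47 and 3.05) were the members not called.

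Paraxial mesoderm genes were called in mesoderm for 13 of 16, with a median log2 ratio of 2.49. *Foxc2* had 55.5 RPKM in mesoderm and 1.76 in epiblast, *Twist1* 53.2 and 2.36, and *Tcf15*, a bHLH factor of somites, 21.95 and 0.666. The segmentation genes *Ripply2* (9.66 and 0.373) and *Ripply1* (6.09 and 0.621) were at lower levels on the same side. The retinoic acid enzyme gene *Aldh1a2* had 93.7 and 27.3. *Dll1* (31.4 and 19.9), *Lfng* (18.8 and 10.8) and *Hes7* (5.54 and 5.83) did not pass the ratio.

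Blood and endothelial genes were called in mesoderm for 9 of 13. *Etv2*, the ETS factor that specifies blood and endothelium, had 47.2 RPKM in mesoderm and 2.16 in epiblast. The VEGF receptor *Kdr* had 40.8 and 0.771, and *Tal1* had 13.3 and 0.214. *Lmo2* (11.01 and 3.03), *Ets1* (9.10 and 1.91) and the co-receptor *Eng* (6.43 and 1.11) were called at lower ratios. On the epiblast side lay *Ldb2* (3.30 and 16.2) and the stem cell factor receptor *Kit* (3.56 and 8.01).

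Muscle genes called in mesoderm included those of the heart and of smooth muscle. Of 27 contractile and actin genes, 11 were higher in mesoderm, 2 in epiblast and 14 in neither. The atrial light chain *Myl7* had 103 RPKM in mesoderm and 7.97 in epiblast, *Tnni1* 10.9 and 0.259, smooth muscle actin *Acta2* 11.99 and 0.776, and cardiac actin *Actc1* 9.37 and 2.36. Intermediate filament *Vim* had 244 and 86.7. The general cytoskeleton genes did not differ so far, with non-muscle myosin *Myh9* at 84.7 and 93.9 and *Flna* at 137 and 114. *Tnnt1* (0.813 and 5.06) and *Cnn1* (2.81 and 6.38) had the opposite direction.

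Promoter sequence is shown for *Actc1* and *Myl7* because the CArG box, the motif that serum response factor binds in muscle promoters, lay close to the start in both. The sequences are the 250 bases before the start in RefSeq (build GRCm38.p6), written 5′ to 3′ on the strand of the gene, with the motif in capitals. Both genes lie on the minus strand, *Actc1* with the window chr2:114052876-114053125 and *Myl7* with chr11:5898783-5899032.
Actc1: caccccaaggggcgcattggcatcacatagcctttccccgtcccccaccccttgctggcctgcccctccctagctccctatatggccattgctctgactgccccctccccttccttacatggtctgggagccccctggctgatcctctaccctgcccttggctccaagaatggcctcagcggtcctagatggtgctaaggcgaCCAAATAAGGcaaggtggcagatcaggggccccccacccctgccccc
Myl7: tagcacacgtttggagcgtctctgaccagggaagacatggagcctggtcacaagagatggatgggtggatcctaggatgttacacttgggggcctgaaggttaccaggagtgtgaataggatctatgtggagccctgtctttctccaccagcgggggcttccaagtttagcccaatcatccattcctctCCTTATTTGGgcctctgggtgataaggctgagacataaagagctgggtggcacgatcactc
A CArG box on either strand was found in 11 of 327 promoters of the mesoderm side, in 5 of 322 of the epiblast side and in 92 of 6703 promoters of all genes above the minimum. Besides *Actc1* and *Myl7*, the mesoderm promoters with the box included those of *Cnn2*, *Anxa5*, *Mesp1* and *Mesp2*.

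Genes of the epithelial-mesenchymal transition were higher in mesoderm for 13 of 23, and none was higher in epiblast. The transcription factors that repress epithelial genes were not at the same ratio. *Snai1* differed 2.71-fold (counting interval 2.56 to 2.86), *Twist1* 22.5-fold (19.3 to 26.5), *Snai2* 16.1-fold (12.7 to 20.6) and *Zeb1* 11.4-fold (9.58 to 13.7). *Zeb2*, with 10.004 RPKM in mesoderm and 5.13 in epiblast, stayed just under 2-fold. *Snai1* was at 24.9 RPKM in epiblast, whereas *Snai2* was at 0.831, *Zeb1* at 0.549 and *Twist1* at 2.36 there. Fibronectin *Fn1* was 5.54-fold higher in mesoderm, and N-cadherin *Cdh2* had 71.8 RPKM in mesoderm and 20.03 in epiblast. *Cdh11* (34.0 and 7.70), *Pdgfra* (65.3 and 8.98) and *Mmp14* (31.1 and 14.2) were on the same side.

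Epithelial adhesion and polarity genes mirrored this list. Of 37 members above the minimum, 20 were higher in epiblast, 3 in mesoderm and 14 in neither, with a median log2 ratio of -1.35. E-cadherin *Cdh1* had 980 reads in mesoderm and 29316 in epiblast, 5.44 RPKM against 156 and a ratio of 28.6 in favour of epiblast (26.8 to 30.5). *Epcam* had 7.22 and 94.7, *Cldn6* 3.33 and 95.1, *Cldn7* 0.878 and 22.3, and *Cldn4* 0.268 and 6.78. The apical polarity gene *Crb3* had 0.380 and 15.3, and *Rab25*, a GTPase of apical recycling, had 1.06 and 33.9. *Grhl2*, a transcription factor of epithelia, had 0.935 and 7.54. The membrane serine protease genes *Prss8* (2.42 and 13.7) and *St14* (1.22 and 11.97) and their inhibitors *Spint1* (5.55 and 21.9) and *Spint2* (10.7 and 64.6) were all called in epiblast.

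Other parts of the epithelial machinery were alike. *Tjp1*, which encodes the scaffold ZO-1 of tight junctions, had 40.6 RPKM in mesoderm and 46.4 in epiblast, *Lsr* 81.1 and 83.1, *Pard3* 22.8 and 19.8, and the desmosomal *Dsg2* 12.2 and 12.9. The keratins went the other way. *Krt8* had 194 RPKM in mesoderm and 46.0 in epiblast, and its partner *Krt18* had 161 and 52.7, while endoderm had 522 and 541 RPKM of these keratins. The Crumbs gene *Crb2* had 12.3 in mesoderm and 4.04 in epiblast. The epithelial splicing regulator *Esrp1* had 1.86 RPKM in mesoderm and 26.3 in epiblast, while the mesenchymal regulator *Rbfox2* had 27.0 and 15.9 and was not called.

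**Figure D3:**
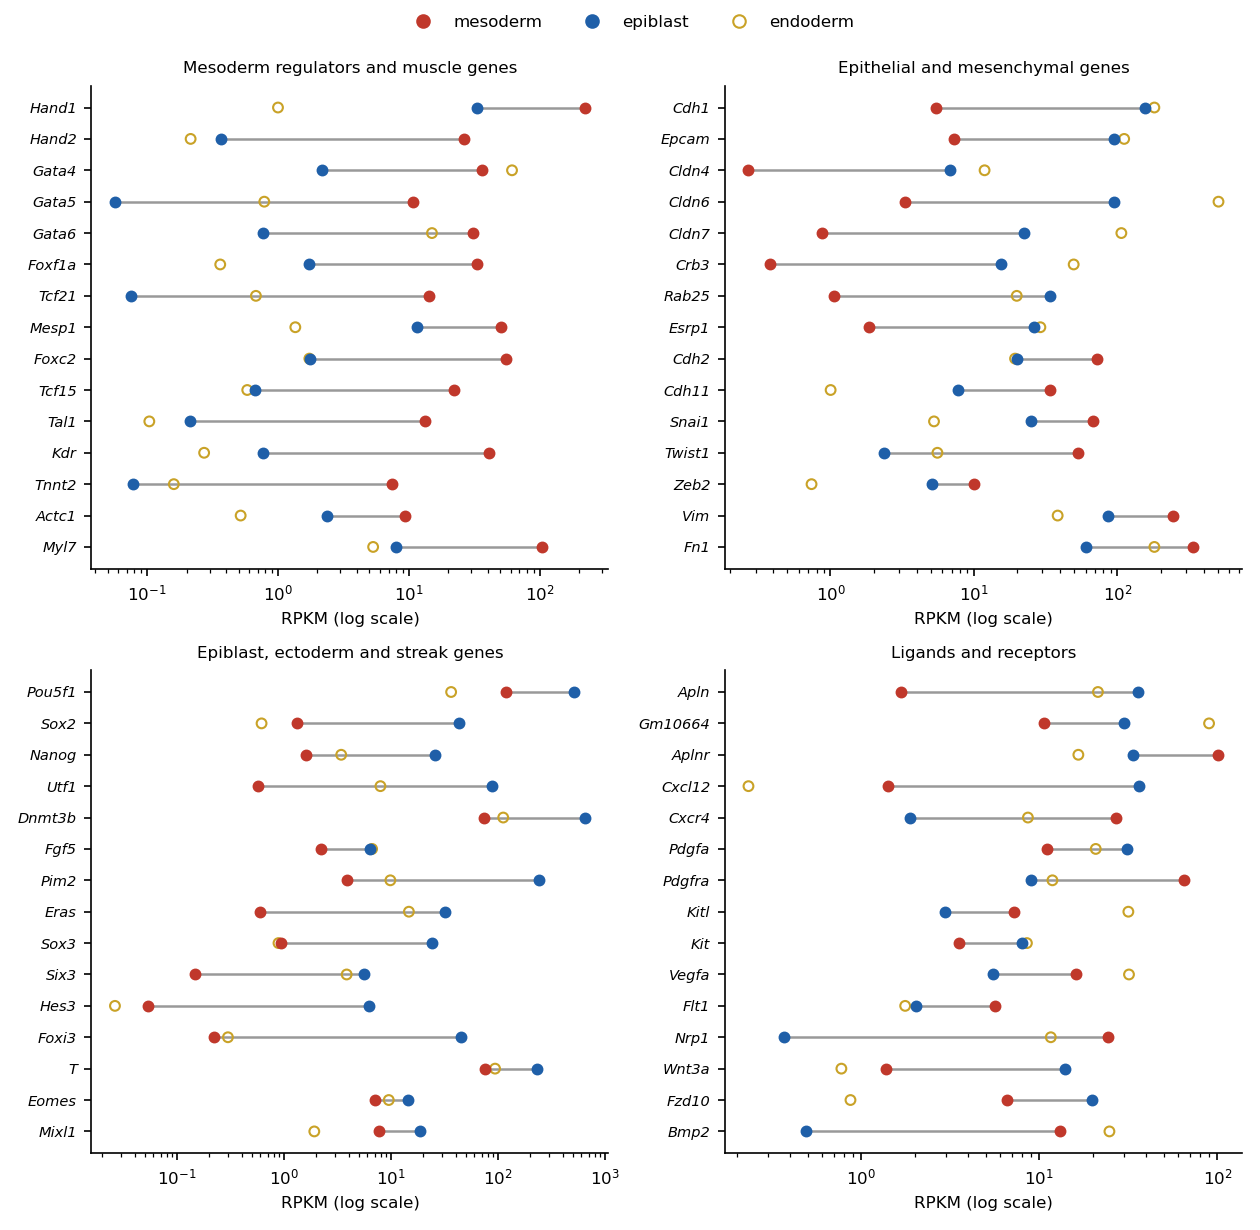
RPKM of selected genes in mesoderm (red), epiblast (blue) and endoderm (open yellow circles), on log scales, with a grey line between the mesoderm and epiblast values. In the upper right panel the epithelial genes from *Cdh1* to *Esrp1* are low in mesoderm and high in both other layers, and the mesenchymal genes from *Cdh2* to *Fn1* are higher in mesoderm than in epiblast.

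The promoters of the epithelial genes were searched for a sequence that the calls had not used. Snail and Zeb repressors bind the E-box CAGGTG, which reads CACCTG on the other strand, and bHLH activators can bind it too. Of the 15 epiblast-side epithelial genes with a promoter in the table, 10 held it between 250 bases before and 50 bases after the start (*Ap1m2*, *Cldn4*, *Cldn6*, *Crb3*, *Elf3*, *Epcam*, *F11r*, *Prkcz*, *Rab25* and *Spint2*). The promoters of *Epcam*, *Crb3*, *Rab25* and *Cldn4* are shown since each had a copy close to the start, with every copy of CAGGTG or CACCTG in capitals. They cover chr17:87635729-87635978 and chr17:57061951-57062200 on the plus strand and chr3:88548280-88548529 and chr5:134946935-134947184 on the minus strand (RefSeq, GRCm38.p6, 250 bases before the start).
Epcam: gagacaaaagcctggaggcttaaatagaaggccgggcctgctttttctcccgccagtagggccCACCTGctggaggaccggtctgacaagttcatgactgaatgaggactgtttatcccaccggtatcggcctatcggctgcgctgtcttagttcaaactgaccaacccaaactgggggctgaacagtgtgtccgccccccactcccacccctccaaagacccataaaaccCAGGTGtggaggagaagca
Crb3: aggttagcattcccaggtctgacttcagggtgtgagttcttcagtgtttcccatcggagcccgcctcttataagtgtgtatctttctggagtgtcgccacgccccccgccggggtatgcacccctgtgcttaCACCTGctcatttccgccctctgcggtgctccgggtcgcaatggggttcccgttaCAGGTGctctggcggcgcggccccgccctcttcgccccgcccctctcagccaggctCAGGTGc
Rab25: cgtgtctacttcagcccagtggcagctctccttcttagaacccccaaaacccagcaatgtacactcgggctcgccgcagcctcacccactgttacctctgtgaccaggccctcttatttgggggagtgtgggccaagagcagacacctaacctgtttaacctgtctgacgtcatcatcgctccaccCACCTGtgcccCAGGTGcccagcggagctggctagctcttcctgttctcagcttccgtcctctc
Cldn4: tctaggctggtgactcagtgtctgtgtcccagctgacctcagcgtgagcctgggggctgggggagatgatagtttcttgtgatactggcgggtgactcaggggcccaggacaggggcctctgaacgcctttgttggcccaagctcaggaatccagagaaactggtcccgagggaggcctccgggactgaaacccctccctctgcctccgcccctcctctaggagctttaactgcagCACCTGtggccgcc
The window of *Crb3* held 3 copies, those of *Epcam* and *Rab25* 2 each and that of *Cldn4* 1.

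The motif was not limited to the epithelial list. It was found in 114 of 322 promoters of the epiblast side, or 35.4%, in 50 of 327 promoters of the mesoderm side, or 15.3%, and in 1043 of 6703 promoters of all genes above the minimum, or 15.6%. Among the genes with more than 4-fold difference the shares were 44.1% of 118 on the epiblast side and 12.6% of 119 on the mesoderm side. Over all 27025 genes of the promoter table the motif was in 5413. Epiblast genes with the motif outside the epithelial list included *Dnmt3b*, *Nanog*, *Pim2*, *Mt2*, *Wnt3a* and *Hes6*. A match is a string of letters and not a bound site. The table held a promoter for 76.8% of the epiblast genes and 73.8% of the mesoderm genes. Since fewer than 80% had one, these shares are void as a check of the whole sets and describe the matched genes.

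**Figure D4:**
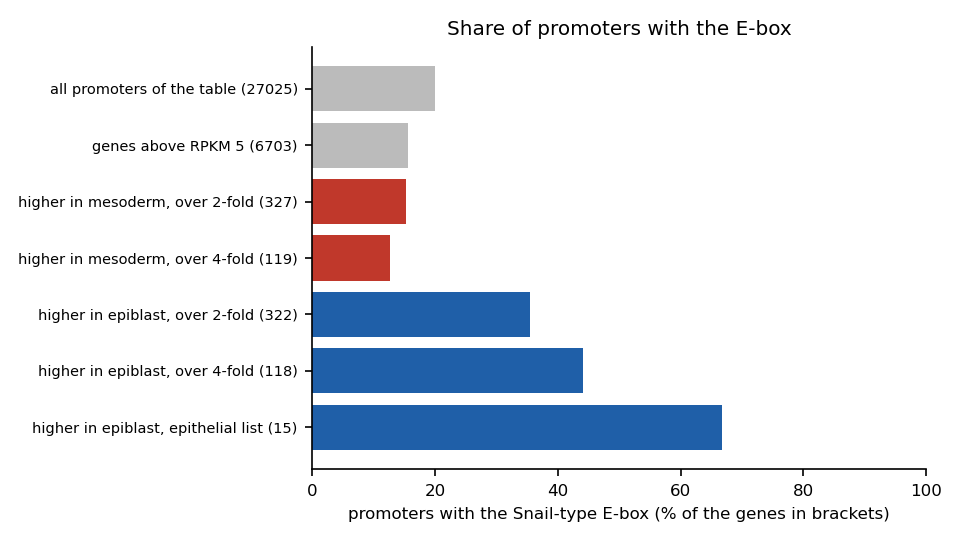
Share of promoters, in percent of the genes given in brackets, that hold the E-box bound by Snail and Zeb proteins in the window from 250 bases before to 50 bases after the start. Grey bars are reference sets, red bars genes higher in mesoderm and blue bars genes higher in epiblast, and the share is 15.3% for the mesoderm side, 35.4% for the epiblast side and 66.7% for the epiblast genes of the epithelial list.

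Other motifs differed less. The TATA box sequence TATAAA was in 8.87% of the mesoderm and 7.76% of the epiblast promoters, against 6.09% of all genes above the minimum. The GATA-type sequence AGATAA was in 7.95% and 6.21%, against 5.53%, and the octamer ATTTGCAT that Oct4 binds was in 2.14% and 2.48%, against 1.30%. The letters AGGTGTGA of a T-box site were in 0.612% and 0.621%, against 0.582%, and the E-box CACGTG in 9.17% and 9.01%, against 10.9%. All motifs were searched on both strands. The matched promoters of called genes were poorer in CpG. The median ratio of observed to expected CpG was 0.700 on the mesoderm side and 0.645 on the epiblast side, against 0.812 for all genes above the minimum.

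Of 32 pluripotency genes, 15 were higher in epiblast, 2 in mesoderm and 15 in neither. *Sox2* had 1.33 RPKM in mesoderm and 42.7 in epiblast, a ratio of 32.2 in favour of epiblast (27.1 to 38.6). *Nanog* had 1.61 and 25.8, *Otx2* 21.2 and 58.3, and the primed-state growth factor *Fgf5* 2.19 and 6.32. *Pou5f1* kept 119.6 RPKM in mesoderm a ratio of 4.33 in favour of epiblast. *Lin28a* (255 and 307), *Sall4* (68.6 and 94.1), *Tdgf1* (10.3 and 8.23) and *Mycn* (83.9 and 66.8) were not called. The 2 members higher in mesoderm were *Myc* (33.4 and 8.81) and *Tbx3* (16.8 and 3.62).

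Ectoderm factors showed both neural and surface fates on the epiblast side. Of 25 neural and surface ectoderm transcription factors, 14 were higher in epiblast and 2, *Irx1* and *Hes1*, in mesoderm. The anterior neural gene *Six3* had 0.146 RPKM in mesoderm and 5.58 in epiblast, *Sox3* 0.927 and 24.3, and *Gbx2*, a gene of the midbrain-hindbrain boundary, 11.01 and 37.0. *Nkx1-2*, a gene of the caudal epiblast, had 6.64 and 67.8. Genes of the surface ectoderm and the neural plate border were also higher in epiblast, with *Tfap2a* at 0.621 and 12.2, *Dlx5* at 0.308 and 11.6 and *Tfap2c* at 0.807 and 5.65. The 3 Sox genes called among the 7 above the minimum were all higher in epiblast.

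Genes of differentiated neurons were also read in epiblast. Of 20 neuronal and neurite genes above the minimum, 12 were higher in epiblast and 3 in mesoderm. The RNA-binding protein gene *Elavl3* had 0.180 RPKM in mesoderm and 9.11 in epiblast, neuronal tubulin *Tubb3* 12.4 and 36.5, *Stmn2* 7.06 and 26.9, and *Gap43* 2.77 and 12.7. *Nnat* (190 and 73.8), *Plxna2* (17.7 and 4.46) and *Ncam1* (8.63 and 2.30) were higher in mesoderm. *Stmn1* (594 and 611) and *Nes* (12.9 and 17.2) were alike.

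Members of the BMP pathway were called on the mesoderm side alone, 10 of 20. The ligands *Bmp4* (33.6 and 2.69), *Bmp5* (16.9 and 0.528), *Bmp7* (31.0 and 7.39) and *Bmp2* (13.02 and 0.489) were all higher in mesoderm. So were the inhibitory *Smad6* (18.7 and 3.84) and the targets *Msx1* (12.8 and 3.43) and *Msx2* (31.7 and 9.35). The receptor *Bmpr1a* (32.3 and 30.2) and the targets *Id3* (127 and 122), *Id2* (22.1 and 24.5) and *Id1* (34.0 and 59.0) were not called.

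The list of Nodal and TGF-beta genes had 7 of 21 members higher in mesoderm, *Tgfb1* and *Tgfb2* among them, and 1 in epiblast. The Nodal antagonists *Cer1* (47.4 and 0.659) and *Lefty2* (40.2 and 15.3) and the co-receptor *Cfc1* (40.4 and 5.14) were on the mesoderm side. The ligand *Nodal* was higher in epiblast (0.152 and 2.20) but below the minimum. The activin antagonist *Fst* had 14.5 in mesoderm and 50.7 in epiblast. The receptors and Smads of the pathway were alike, with *Acvr2b* at 17.7 and 17.9 and *Smad4* at 49.97 and 52.2.

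The Wnt list was split by ligand, with 8 of 33 members higher in mesoderm and 6 in epiblast. *Wnt3a* (1.38 and 13.9), *Wnt8a* (2.47 and 24.97) and *Wnt5b* (3.03 and 6.20) were higher in epiblast. *Wnt5a* (14.3 and 4.41) and *Wnt2* (8.53 and 1.24) were higher in mesoderm. Among the Frizzled receptors, *Fzd10* (6.56 and 19.7) was on the epiblast side and *Fzd4* (8.19 and 0.775) and *Fzd1* (7.91 and 3.56) on the mesoderm side. The target *Axin2* was at 24.4 and 27.2, and *Lef1*, a nuclear partner of beta-catenin, at 71.4 and 32.2.

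The FGF list had 3 members on each side of 22, with *Fgf3* (23.1 and 4.99) in mesoderm and *Fgf5* in epiblast, and *Fgf8* (10.3 and 13.5) and *Fgfr1* (77.1 and 73.5) in neither. Of 11 Hedgehog genes, 4 were higher in mesoderm, among them the receptor and target *Ptch1* (39.8 and 13.7) and the target *Gli1* (10.05 and 2.87). Of 15 Notch genes, 5 were higher in mesoderm, among them *Dll3* (43.4 and 17.5), *Jag1* (11.99 and 3.15) and the receptor *Notch1* (19.7 and 9.04). *Dtx1*, a Notch regulator, had 0.409 in mesoderm and 9.40 in epiblast. Among 15 retinoid genes, the binding proteins parted, with *Crabp1* at 252 and 27.7 and *Crabp2* at 53.8 and 109.

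Several ligands and their receptors lay on opposite sides. Apelin (*Apln*) had 216 reads in mesoderm and 4793 in epiblast, an RPKM of 1.68 and 35.7, and its second ligand Apela, listed under the older symbol *Gm10664*, had 10.7 and 30.0. Their receptor *Aplnr* had 101 RPKM in mesoderm and 33.7 in epiblast. The chemokine *Cxcl12* had 1.42 in mesoderm and 36.4 in epiblast, while its receptor *Cxcr4* had 26.9 and 1.89. *Pdgfa* had 11.003 and 30.9, and *Pdgfra* 65.3 and 8.98. The opposite arrangement was seen for *Kitl* (7.20 and 2.97) and *Kit* (3.56 and 8.01). For VEGF the ligand *Vegfa* (16.2 and 5.49) and the receptors *Kdr* and *Flt1* (5.65 and 2.04) were on the mesoderm side together. In endoderm the ligands *Gm10664* (89.8), *Kitl* (31.6) and *Vegfa* (31.9) were above both layers, while *Apln* (21.4), *Pdgfa* (20.8) and *Cxcl12* (0.233) were not. Of 24 known ligand and receptor combinations with both genes above the minimum, 4 had the ligand in epiblast and the receptor in mesoderm, 1 the reverse, 4 both in mesoderm and 1, *Wnt3a* with *Fzd10*, both in epiblast. Over the whole list of PDGF, VEGF, apelin, chemokine and IGF genes, 11 of 21 were higher in mesoderm and 6 in epiblast. The IGF genes among these were *Igf2* and *Igfbp4* in mesoderm and *Igfbp2* and *Igfbp3* in epiblast. The list of combinations was written after the values had been seen.

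The extracellular matrix was largely on the mesoderm side, with 19 of 33 genes called there and 5 in epiblast. Basement membrane collagens *Col4a1* (54.4 and 20.6) and *Col4a2* (23.6 and 7.24), whose exons overlap in the annotation, laminin *Lama1* (18.3 and 3.09), fibrillin *Fbn2* (10.1 and 0.565), versican *Vcan* (12.2 and 1.82) and hyaluronan synthase *Has2* (12.9 and 5.08) were higher in mesoderm. Enzymes that process collagen went with them, namely *Leprel1* (29.3 and 1.55), the chaperone *Serpinh1* (266 and 99.6) and *P4ha1* (24.9 and 11.7), among 11 of 25 protease and remodelling genes. *Col18a1* (19.13 and 55.6), *Lama5* (3.49 and 13.1) and *Frem2* (1.52 and 7.29), components of epithelial basement membranes, were higher in epiblast. The shared laminin chains *Lamb1* (34.8 and 30.2) and *Lamc1* (26.0 and 20.4) were not called.

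Some gene families were divided between the layers. Of the 52 families defined by symbol, 48 had a called gene and 22 had called genes on both sides. No expected number was computed for the 22, and a large family can have both at shares near those of all genes. The 175 C2H2 zinc finger genes had 3.43% in mesoderm and 1.71% in epiblast, and the 101 *Tmem* genes 3.96% and 6.93%. The forkhead genes had 23.5% on each side. Integrins parted into *Itga5* (22.5 and 10.5) and *Itga9* (5.36 and 0.776) against *Itga6* (3.32 and 11.8). Cadherins and protocadherins had 7 of 12 in mesoderm, *Pcdh19* (23.4 and 3.67) and *Pcdh8* (13.4 and 2.90) among them, and 2 in epiblast, *Cdh1* and *Pcdh1* (1.39 and 29.8). The Eph receptors *Epha1* (8.68 and 44.6) and *Epha2* (1.91 and 5.56) were higher in epiblast and *Epha4* (21.2 and 9.98) in mesoderm. The guidance receptors *Unc5c* (9.94 and 0.373) and *Robo1* (31.9 and 14.4) were higher in mesoderm and the netrin *Ntn1* (8.13 and 20.5) in epiblast. Forkhead genes had 4 on each side of 17, T-box genes 3 in mesoderm and 2 in epiblast of 7. The CDK inhibitors also parted, with *Cdkn1c* at 76.7 and 9.60 and *Cdkn1a* at 3.67 and 17.2.

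Hox genes and their cofactors leaned to mesoderm, with 6 of 15 called there and *Cdx1* (15.9 and 48.7) in epiblast. *Hoxb2* had 29.0 and 9.81, *Hoxb3* 6.78 and 1.86, *Hoxb6* 6.56 and 0.279, *Hoxd1* 6.15 and 0.873, *Cdx4* 6.26 and 1.73, and the cofactor *Meis1* 20.2 and 1.54. The early genes *Hoxb1* (68.5 and 38.6) and *Cdx2* (20.9 and 37.1) were not called.

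Imprinted genes were among the most abundant of the mesoderm side. Of 15 paternally expressed genes, 7 were higher in mesoderm and none in epiblast. Of 13 maternally expressed genes, 4 were higher in mesoderm and 3 in epiblast. On chromosome 7, the neighbours *H19* and *Igf2* were 16.6-fold and 17.5-fold higher in mesoderm, although they are expressed from opposite parental alleles, and *Cdkn1c* and *Phlda2* of the next domain were 7.99-fold and 7.74-fold higher. On chromosome 6, *Peg10* (170 and 17.0), *Sgce* (9.80 and 4.63) and *Asb4* (29.2 and 0.855) lay together on the mesoderm side. The chromosome 12 domain was divided. *Dlk1*, from the paternal allele, had 9.73 in mesoderm and 1.45 in epiblast, whereas the maternal noncoding RNAs *Meg3* (6.66 and 14.7), *Rian* (43.9 and 122) and *Mirg* (7.22 and 17.3) were higher in epiblast. *Igf2* and *Mest* share exons with other annotated genes.

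Genes that all cells use differed little. None of the 43 oxidative phosphorylation genes, the 24 lysosomal genes, the 90 ribosomal protein genes or the 36 proteasome genes was called. Of 45 cell cycle genes, *Cdkn1c* and *Cdkn1a* were called, and *Mki67* (61.2 and 46.6), *Cdk1* (59.1 and 63.6) and *Pcna* (288 and 376) were not. Of 30 genes in the glycolysis and glucose transport list, 2 were called in mesoderm and 3 in epiblast. The 2 in mesoderm were the collagen enzyme gene *P4ha1* and the ligand gene *Vegfa*, which are not themselves glycolysis or glucose transport genes. Those in epiblast were *Slc2a3*, *Hk1* and *Eno3*. The enzymes *Gapdh* (2291 and 2715) and *Ldha* (1434 and 1859) were at similar levels in both layers. Of 27 amino acid and one-carbon genes, 7 were higher in epiblast, 1 in mesoderm and 19 in neither, with a median log2 ratio of -0.16. The gene called in mesoderm was the transporter *Slc38a4* (72.8 and 23.7). Those called in epiblast were the serine enzyme *Phgdh* (48.1 and 100.4), the glycine cleavage genes *Gldc* (8.599 and 53.9) and *Amt* (16.9 and 38.3), threonine dehydrogenase *Tdh* (0.309 and 9.63), *Cbs* (1.81 and 10.2) and the transporters *Slc7a3* (1.35 and 32.2) and *Slc7a7* (4.997 and 11.6).

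Chromatin regulators were mostly alike, with 6 of 48 higher in mesoderm, 3 in epiblast and 39 in neither. *Hmga2* (262 and 57.0) and the Polycomb genes *Bmi1* (16.1 and 7.90) and *Pcgf5* (7.88 and 2.68) were higher in mesoderm, and the Polycomb genes *Cbx7* (1.37 and 17.5) and *Cbx6* (4.16 and 10.01) in epiblast. Of the DNA methylation genes, *Dnmt3b* was 8.72-fold higher in epiblast, while *Dnmt1* (74.9 and 80.8) and *Dnmt3a* (16.2 and 30.4) were not called. Of 20 apoptosis genes, 4 were higher in epiblast and none in mesoderm. These were the pro-apoptotic members *Pmaip1* (7.11 and 20.3), *Bid* (9.12 and 20.1), *Bok* (2.99 and 7.67) and *Bmf* (1.84 and 7.24). Of 26 tissue-restricted RNA-binding genes, *Rbms1* (91.0 and 23.9) and *Rbm24* (23.2 and 3.54) were higher in mesoderm and *Rbpms2* (56.9 and 114.8), *Esrp1* and *Elavl3* in epiblast.

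The endoderm library, which the calls had not used, placed the called genes differently by function. Above RPKM 5 in endoderm were 56.2% of the mesoderm genes and 58.2% of the epiblast genes, against 88.0% of all genes above the minimum. These lower shares can follow from the rule, which picks genes with a low layer, so no conclusion is drawn from them. Only 177 mesoderm genes were above RPKM 5 in epiblast, and only 139 epiblast genes were above it in mesoderm. Of the 443 mesoderm genes, endoderm was above both layers for 110, between them for 170 and below both for 163. For the 419 epiblast genes these counts were 127, 149 and 143. Of the 20 epithelial genes of the epiblast side, 16 were higher still in endoderm and none was below both layers, as with *Cldn6* at 507 RPKM and *Crb3* at 49.6 in endoderm. Of the 13 paraxial genes, 10 were lower in endoderm than in epiblast, and of the 12 neuronal genes of the epiblast side 9 were lower than in mesoderm. Some cardiac factors were higher in endoderm, among them *Gata4* with 61.4. The lipid carrier *Apoe*, at 207 RPKM in mesoderm and 92.8 in epiblast, reached 2952 in endoderm. The high imprinted genes parted, with *H19* at 3561 in endoderm and *Mest* at 32.7.

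**Figure D5:**
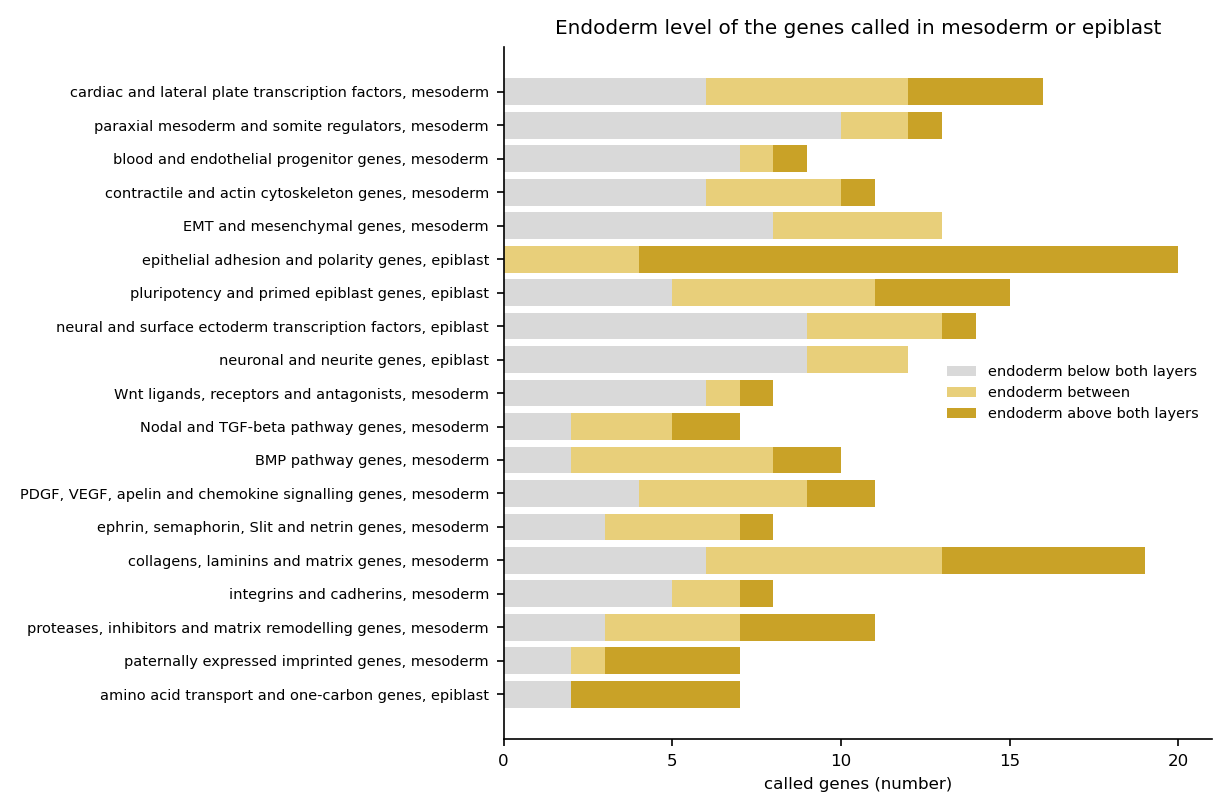
Number of called genes, by list and by the layer in which they were called, whose endoderm RPKM lay below both layers (grey), between them (light yellow) or above both (dark yellow), for lists with at least 7 called genes on a side. The bar of the epithelial genes holds 16 dark and 4 light genes, and that of the paraxial genes 10 grey, 2 light and 1 dark.

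At the limit of the rule, *Dram2*, *Top2b* and *Mogat2* were just inside on the mesoderm side, with ratios from 2.001 to 2.012, and *Ms4a4d*, *Pdzrn3* and *Adprh* were just outside, with ratios from 1.995 to 1.9998. On the epiblast side *H2-K1*, *Slc25a33* and *Ank2* were just inside, with ratios from 2.001 to 2.009, and *Zbtb34*, *Nav1* and *Cuedc2* just outside, with ratios from 1.996 to 1.997. Of the called genes, 51 on the mesoderm side and 62 on the epiblast side share exon sequence with another coding gene, *Bmp4*, *Crb3*, *Eras* and *Smarcd3* among them, and whether counting used the strand is not given in the sources used here.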

How the data were processed

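The 3 libraries (endoderm, mesoderm and epiblast, 1 each) were paired-end RNA-seq of total RNA pooled over embryos, and mesoderm was compared with epiblast. The authors deposited for each gene the count of uniquely mapped reads, the RPKM and the percent of the gene covered. The aligner, annotation and counter of these tables are not given in the sources used here. Symbols were matched to GENCODE vM21 and RefSeq (GRCm38.p6), and a gene not listed was taken as 0 reads. A gene was called at RPKM above 5 in either library and a ratio above 2. Ratios were given exact 95% intervals from the counts (scipy 1.17.1, Python 3.11.15). With 1 library a group no test of the layers can be made. edgeR 4.0.16 with the biological coefficient of variation (BCV) set by hand and the Audic-Claverie test of 2 libraries served as alternatives, and the rules were tested on simulated counts.

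The members, the 38 gene lists and the 52 symbol families were chosen with earlier results of these data known. The rule for names took the markers, *Esrp1*, *Esrp2*, *Rbfox2*, the genes nearest the limit, the 20 highest genes and the 10 with the largest ratios on each side, and up to 6 called members of highest RPKM a side of each list. Further members, called or not, were named after their values had been seen. Promoters were 250 bases before to 50 after the start, and 7 motifs were searched on both strands. The same window of a gene served for both layers. The paper reports frequent use of alternative promoters in these layers, so the window may not be the promoter in use. Some genes are not reported here.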

Additional observations from a re-analysis of the deposited data

How the results depend on the processing

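The counts of genes higher in mesoderm than in epiblast (443) and of genes higher in epiblast than in mesoderm (419) moved with the limits of the rule. They were 848 and 1015 at RPKM above 1, 285 and 240 at RPKM above 10, 1807 and 2208 with no RPKM minimum, 848 and 716 at a ratio above 1.5, and 177 and 157 at a ratio above 4. edgeR with an assumed BCV of 0.2 called 232 and 211, and with 0.4 called 32 and 28. Other scalings gave 415 to 480 in mesoderm and 401 to 444 in epiblast and moved the median log2 ratio by at most 0.06. The Audic-Claverie test gave 442 and 419, and leaving out genes with overlapping exons 306 and 283. Of 570 recounts of lists, 7 had their leading side exchanged and 41 became equal. With a BCV of 0.4 the Notch list had 0 in mesoderm and 1 in epiblast and the integrins and cadherins 0 and 2. With no minimum the Wnt list had 15 and 16 and the maternally expressed imprinted genes 7 and 8. The glycolysis list had 2 and 1 by the counting interval and with a pseudocount of 1 RPKM, and the RNA-binding list 2 and 1 without overlapping genes. At a ratio above 4, AGATAA was in 11.8% of mesoderm and 4.24% of epiblast promoters, against 5.53% of all genes above the minimum. CAGGTG was then in 12.6% of the mesoderm and 44.1% of the epiblast promoters. Of 1430 recomputed log2 ratios of named genes, 239 lay outside their counting interval. No paired analysis was possible because each germ layer has 1 library, and no library could be left out. The counting interval lay wholly above 2 for 392 of the mesoderm and 361 of the epiblast genes. The spread between embryo pools was not measured.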

Other observations

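Of the called genes, 558 were in none of the lists. On the epiblast side the metallothioneins *Mt1* and *Mt2*, which bind zinc and copper, were 15.1-fold and 14.7-fold higher than in mesoderm, and endoderm was higher still, with 683 and 541 RPKM. The membrane linker *Ezr* of apical microvilli had 26.1 in mesoderm, 81.6 in epiblast and 256 in endoderm. The fatty acid binding protein gene *Fabp5* had 112 in mesoderm and 243 in epiblast, and the Polycomb gene *Phc1* had 34.0 and 93.9. The haematopoietic factor *Myb* had 0.440 in mesoderm and 7.02 in epiblast. On the mesoderm side, the skeletal muscle gene *Tnnt3* (6.10 and 0.169) and *Alx1* (19.2 and 0.366), a homeobox gene of cranial mesenchyme, were among those with large ratios, and so were *Rgs5* (10.9 and 0.259), known from pericytes, and *Cd248* (8.47 and 0.528), known from stromal cells. The genes of macroH2A histones, *H2afy* (80.4 and 30.9) and *H2afy2* (87.0 and 42.1), were both higher in mesoderm. The Wnt carrier *Wls* had 79.8 and 27.4, and the myelin gene *Pmp22* 101 and 7.81.

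By chromosome, X held 293 genes above the minimum, of which 7.17% were higher in mesoderm and 10.2% in epiblast, the latter including *Pim2*, *Eras*, *Bex1*, *Bex4*, *Sox3*, *Apln*, *Mcf2* and *Slc7a3*. Of 290 genes on chromosome 13, 7.24% were higher in mesoderm and 1.72% in epiblast, and of 419 genes on chromosome 17 these shares were 2.15% and 6.92%, against 5.31% and 5.02% of all genes. Reads of the near-identical *Cxx1a*, *Cxx1b* and *Cxx1c* copies and of the *Bex* genes may have been divided between copies.

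The remaining lists had few called members. Of 11 interferon and antigen presentation genes, *Ifitm1* was higher in mesoderm and *Bst2* (1.70 and 30.6), *H2-K1* (4.14 and 8.28) and *H2-D1* (3.03 and 7.35) in epiblast, the class I genes being similar in sequence. Of 8 germ cell genes, *Ifitm1* and *Kitl* were higher in mesoderm and *Kit* and *Tfap2c* in epiblast. Proteoglycan genes had 3 of 17 in mesoderm and 2 in epiblast. Of 29 cholesterol and fatty acid synthesis genes, 1 was higher in mesoderm. The splicing regulator *Esrp2* was at 0.337 in mesoderm and 0.532 in epiblast, below the minimum.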
